A study of Mus musculus with 44 samples.

Results

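The immunoglobulin heavy chain genes Ighm, Ighg3 and Igha and the joining chain gene Jchain were followed in 1 spleen and 43 lymphomas of Eµ-myc mice, each on an Affymetrix mouse expression array of its own. Every probe set (a group of short probes that reports 1 value) annotated to these 4 of 13319 gene symbols was taken, alone or together with other symbols. That gave 23 of 22626 non-control probe sets, of which 15 name Ighm, 7 name Ighg3, 3 name Igha and 1 names Jchain. The rule goes by symbol, not by level, although earlier results of these data were known when the genes were chosen. Of the 23 probe sets, 19 carry 1 symbol, and 3 of the other 4 name Ighm and Ighg3 together with a variable segment gene.

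A B cell first makes IgM, whose heavy chain is encoded by Ighm. Class switch recombination then joins the same variable region to another constant region, such as that of Ighg3 for IgG3 or that of Igha for IgA, the antibody of mucosal surfaces. Jchain encodes the small joining chain that links IgM into pentamers and IgA into dimers, and antibody-secreting cells make it in large amounts. Transcripts that cross a constant region before switching also exist, and an array value does not tell them from switched transcripts, nor secreted from membrane forms.

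The spleen, titled D168, and the lymphomas all carry the genotype Eµ-myc, in which a Myc transgene is driven by the immunoglobulin heavy chain enhancer in B cells. The labels list no wild type or treated sample, no age, and no statement that the spleen was free of lymphoma or that each lymphoma came from its own animal, so p-values measure only the spread between these samples. RNA came from frozen tissue or from pellets of suspended cells, and which array followed which route is not given. Column medians split the arrays by title number. The spleen, with a median of 7.01, went with 7 lymphomas titled D121 to D163, here called set 2 (6.85 to 6.96). The 36 lymphomas titled D34 to D117, called set 1, had medians of 6.21 to 6.45. Levels below are RMA values on the log2 scale and are set side by side only within a set. Between probe sets they serve only to pick or describe the brighter or dimmer ones of a gene. They are also set against the median of their array. In the spleen 7 of 9 measured pan B cell genes lay above the array's own median, and in each lymphoma 7 to 9 of them did.

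Some lymphomas stood apart in earlier work on these data, namely D55, D59, D92 and D121. In D59 the mean of 14 stroma and endothelium genes lay 5.33 log2 units above the set median, and in D92 the mean of the pan B cell genes lay 3.01 below it (-3.01). D59 also held the lowest set 1 value of 11 of the 23 member probe sets, against 19.1% of all probe sets. The value without these 4 arrays is given for some calls and counts. Others, such as several list counts in the regressions on Jchain and Igha, also changed without them.

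Ighm, the gene of the first heavy chain class, was read by a pair of bright probe sets that moved together. Probe set 1427351_s_at, the brighter of them on average and the main probe set of Ighm here, was at 14.92 in the spleen, against 11.32 to 14.21 (median 13.11) in the set 2 lymphomas. In set 1 it ran between 8.46 in D35 and 13.71 in D52 (median 12.70). The spleen lay above all 7 lymphomas of its set, yet the difference of 1.98 ± 1.28 (SE) did not pass the test (limma adjusted p = 0.349). The other probe set of the pair, 1427329_a_at, was at 14.38 in the spleen and at 10.73 to 13.39 in set 2, with a set 1 range of 6.88 to 12.99.

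Igha, the IgA heavy chain gene, had the widest spread of the members over all 43 lymphomas and in set 1, whereas in set 2 Jchain was more spread (SD 2.96 against 2.48 for Igha). Main probe set 1421653_a_at was at 14.17 in the spleen, against 7.18 in D135 to 13.40 in D143 (median 9.70) in set 2. Set 1 ran between 4.64 in D82 and 14.12 in D88 (median 9.85). The spleen was above all 7 set 2 lymphomas. The difference of 4.14 ± 2.60 (SE) did not pass (limma adjusted p = 0.330), nor did those of 1425763_x_at (4.13, adjusted p = 0.280) and 1429381_x_at (4.14, adjusted p = 0.255).

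Jchain was at 13.23 in the spleen, against 5.41 in D151 to 13.71 in D163 (median 10.46) in set 2 and 5.001 in D82 to 13.53 in D88 (median 8.81) in set 1. D163 was above the spleen, so the groups overlapped, and the difference of 3.62 ± 2.42 (SE) did not pass (limma adjusted p = 0.366).

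Of the 4 main probe sets, that of Ighg3 had the largest difference between the spleen and the lymphomas. Main probe set 1427503_at was at 14.53 in the spleen, against 6.30 to 7.92 (median 6.62) in set 2, and 4.80 to 10.49 (median 6.11) in set 1. No set 2 lymphoma came near the spleen, and the difference of 7.65 ± 1.14 (SE) passed the test (limma adjusted p = 2.17e-06). The set 2 median of this probe set lay below the array medians of its set, so the low end of this difference is poorly measured. The dimmer Ighg3 probe set 1447998_at was at 6.67 in the spleen and 5.28 to 5.77 in set 2, a difference of 1.20 ± 1.05 (SE) that did not pass (adjusted p = 0.510). In set 1 it stood at 10.31 in D78 against a median of 4.57, so the highest value of both probe sets belonged to D78. The other 2 Ighg3 probe sets, 1426198_at and 1426199_x_at, lay under the median of every array.

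**Figure D1:**
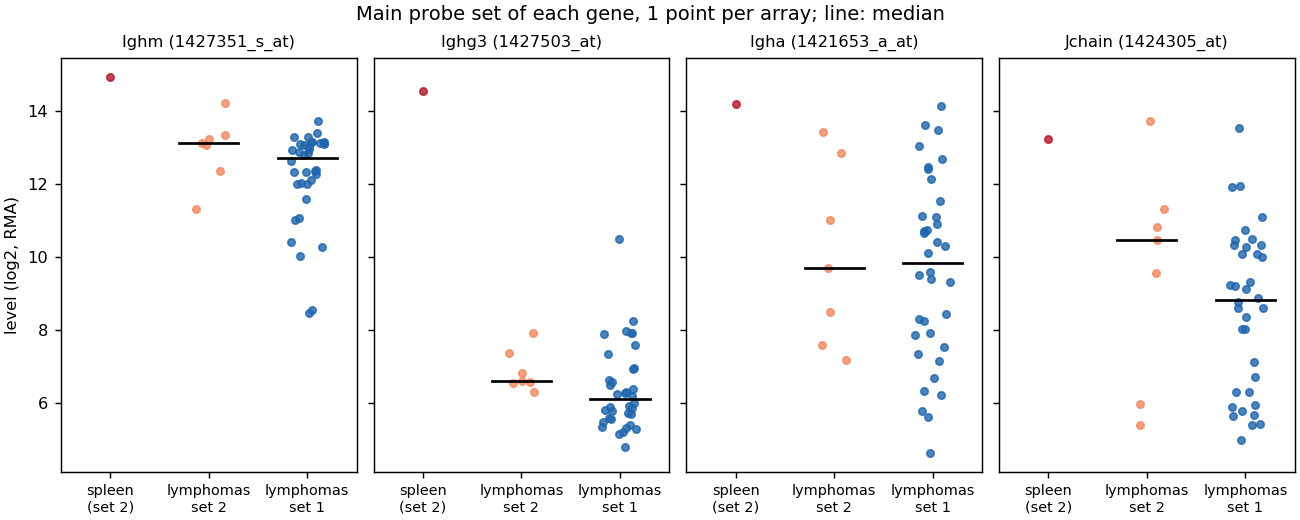
Levels (log2, RMA) of the main probe set of Ighm, Ighg3, Igha and Jchain, with 1 point per array in the spleen, the 7 set 2 lymphomas and the 36 set 1 lymphomas and a line at the median. The spleen stands alone for Ighg3 at 14.53, while the lymphomas span several log2 units for Igha and Jchain.

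Over all members, 10 of 23 probe sets were higher in the spleen and 0 were lower, where 5.75% of all probe sets were called higher and 4.35% lower. The spleen exceeded every set 2 lymphoma in 18 of 23 members, against 16.3% of all probe sets. The median difference was 2.74 over the members and -0.14 over all probe sets. Beside the main Ighg3 probe set, the called members were 9 probe sets that name Ighm, 2 of them with other symbols. With a difference of 5.26 ± 0.49 (SE; limma adjusted p = 1.49e-11), 1452535_at had the smallest p of the members. It stood at 11.03 in the spleen and at 5.14 to 6.39 in set 2. All these set 2 values lay below the array medians of the set. The low end of this difference, and the lymphoma spread behind its p, are thus poorly measured. Of the called probe sets that name Ighm, only 1427870_x_at and 1425385_a_at had a set 2 median (7.78 and 7.19) above those array medians. For the others the low end is poorly measured as well. The largest difference among the Ighm probe sets was 6.18 ± 1.80 (SE; adjusted p = 0.0206) in 1425247_a_at, at 12.44 in the spleen against 5.09 to 7.99 in set 2. The call of 1425385_a_at (4.97 ± 1.64, adjusted p = 0.0443) was lost without the 4 lymphomas (adjusted p = 0.0511) and with set 2 alone (adjusted p = 0.180).

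The bulk arrays cannot tell a larger share of antibody-making cells in the spleen from more RNA per such cell. Of 33 probe sets of other immunoglobulin genes, 12 were higher in the spleen, all of them annotated to kappa variable genes, and 1 was lower, Igk at -2.46 ± 0.64 (SE; limma adjusted p = 0.00841). Of 15 plasma cell genes measured, 4 were higher and 0 lower: Tent5c, an RNA poly(A) polymerase gene (7.02), Prdm1, which encodes the regulator Blimp-1 (3.79), the secretory transcription factor gene Xbp1 (2.78) and Creb3l2 (1.99). Unfolded protein response genes were higher for 4 of 16, and pan B cell, precursor B cell and B cell receptor genes for 0 of 9, 0 of 14 and 0 of 10, none of them lower either. Markers of other cells moved as well. Erythroid genes were higher for 9 of 10 and neutrophil genes for 10 of 12, with neutrophil list means of 12.4 in the spleen and 5.57 to 9.35 in set 2. Stroma and endothelium genes were higher for 4 of 14, with list means of 8.97 in the spleen and 5.77 to 6.63 in set 2, and macrophage genes for 2 of 15, with 9.70 in the spleen and 6.25 to 9.75 in set 2. T cell genes were called in neither direction (0 of 13), with list means of 6.35 in the spleen and 6.32 to 8.71 in set 2. The part of these cells in the member differences was not tested.

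Among the lymphomas the members varied far more than most probe sets. The SD of values minus the set mean was 1 or more in 13 of 23 members, against 4.23% of all probe sets, and its median was 1.08 log2 units against 0.268. Igha main probe set had an SD of 2.48, above 99.95% of all probe sets, and Jchain had 2.30. Ighm and Ighg3 had SDs of 1.22 and 1.08. By a mixture model no gene's lymphomas met all limits for separate clusters, so values are treated as a continuum. For Ighm 2 components fitted better than 1 (gain in BIC, a fit score, of 12.7, limit 10). Their separation fell short (Ashman D 2.14, limit 3). For Jchain the separation passed (3.63) and the gain did not (1.29).

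The probe sets that share the symbol Ighm did not share 1 pattern. The bright pair correlated with each other at r = 0.98 over the 43 lymphomas. Another 5 (1425247_a_at, 1425324_x_at, 1427756_x_at, 1427869_at and 1427870_x_at) were joined by r of at least 0.8 and correlated among themselves at 0.87 to 0.98, but with the bright pair at only -0.08 to 0.15. This block followed Igha instead, at r = 0.40 to 0.63, and Jchain at 0.32 to 0.55, whereas the bright pair stood at -0.37 to -0.29 against Jchain. All 5 were highest in D46 within set 1, where 1425247_a_at reached 11.80 against a set median of 5.89. Of the block, 1427870_x_at lay above the array's own median in 43 lymphomas. The others did so in only 0 to 16, so their low end is poorly measured. The 3 Igha probe sets correlated at 0.979 to 0.996 and gave r = 0.75 to 0.76 with Jchain. Probe sets with the suffix x or s can bind related transcripts, the sequences they read were not used here, and whether this shaped the blocks was not tested. These correlations share arrays and normalization and are given as a description.

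**Figure D2:**
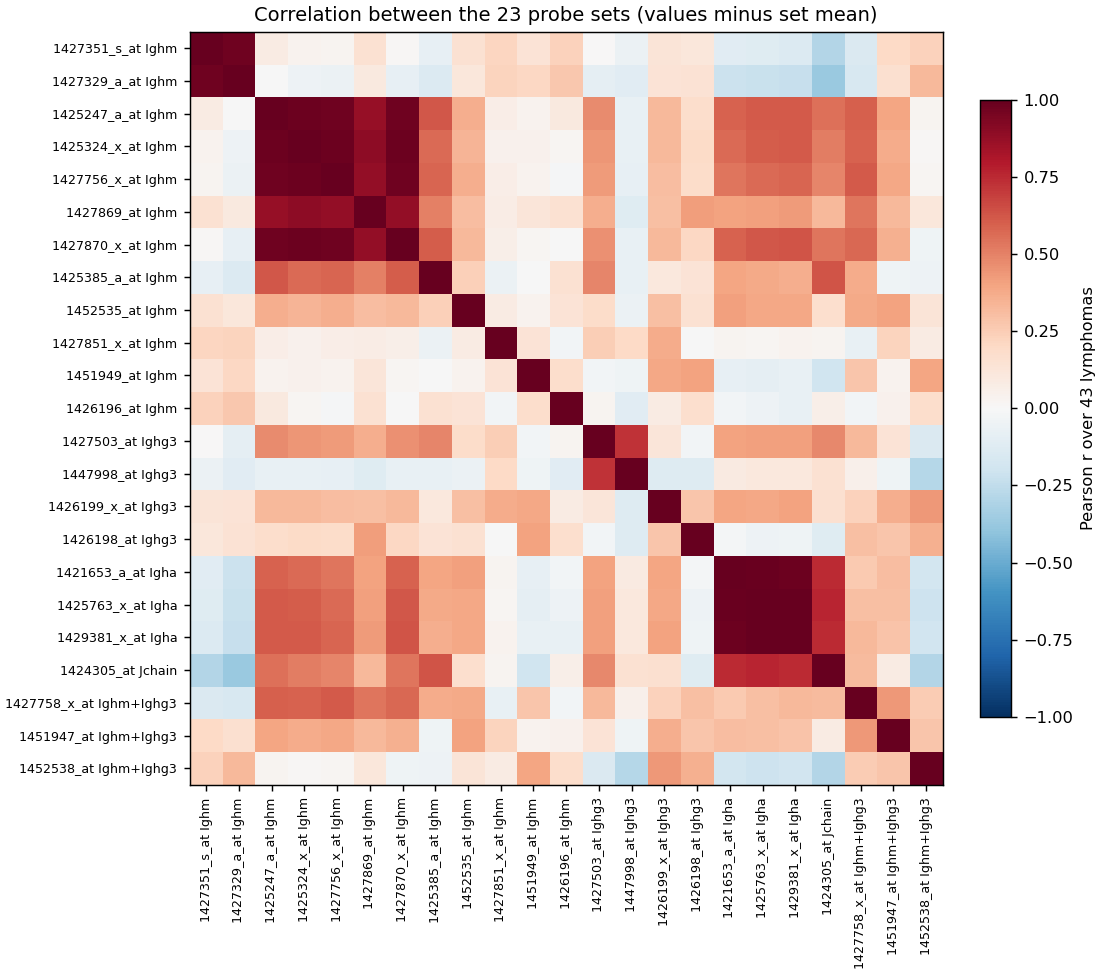
Pearson correlation between all 23 member probe sets over the 43 lymphomas, after subtracting the set mean. The bright Ighm pair, the block of 5 further Ighm probe sets and the 3 Igha probe sets appear as separate dark squares, with the block paler red against Igha and Jchain.

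Class use was described for each lymphoma by the main probe set of each gene, and a gene was called high at 2 or more log2 units above its set median. By this measure 10 of 43 lymphomas were high for Igha, 5 for Jchain, 2 for Ighg3 and 0 for Ighm, while 29 were high for none. The 0 holds for the main Ighm probe set and also for its bright partner, but not for every Ighm probe set. In 5 or more lymphomas 1425385_a_at (8), 1425247_a_at (6), 1425324_x_at (5) and 1427870_x_at (5) were this high. Igha and Jchain were high together in 3 lymphomas, which is 3 of the 10 high for Igha and 3 of the 5 high for Jchain. D88 had Igha at 4.27 and Jchain at 4.72 above the set median, D53 had 3.61 and 3.09, and D117 had 3.76 and 3.12. D88 and D53 were at the same time low in Ighm, at -2.28 and -2.68, and D117 lay at -0.60.

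The other 7 lymphomas high for Igha were D46, D75, D81, D92, D93, D133 and D143, of which D92 is among the 4 that stood apart. Their Jchain levels ran between 0.00 in D133 and 1.91 in D46 relative to the set median, so none of them lay below it. Jchain without Igha was high in D83 and D163. In D83 Jchain was 2.27 above the set median, with Ighm at -4.14 and Igha at -2.69. In D163 Jchain was 3.24 above, with Igha at -1.21 and the main Ighm probe set at -1.79, while Ighm probe set 1425385_a_at stood at 5.48. Ighg3 was high in D78, at 4.38, and in D52, at 2.14. D78 had Igha at 1.69 and Ighm at -1.69, whereas D52 had Igha at -3.62 and Ighm at 1.01, the highest Ighm of set 1.

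The low ends were counted after the values had been seen. The main Ighm probe set lay 2 or more units under the set median in 5 lymphomas, with D35 (-4.24) and D86 (-2.44) beside D53, D83 and D88. Igha was this low in 11 lymphomas and Jchain in 13, and 8 lymphomas were low in both. D35 was low in Ighm, Igha and Jchain together, and its Ighg3 was at -0.69. Of the 5 lymphomas low in the main Ighm probe set, 2 were high for Igha and 3 were high for Jchain.

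**Figure D3:**
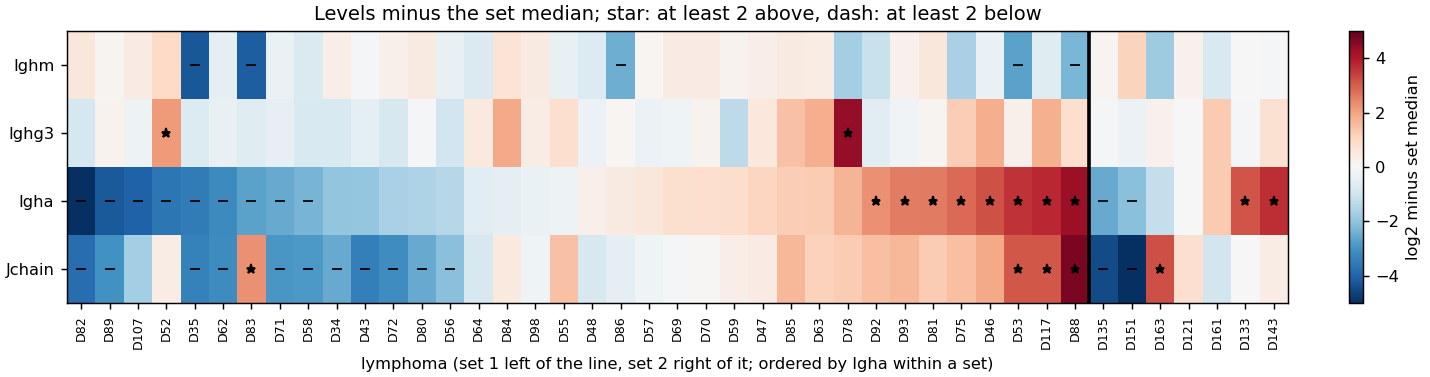
Level minus set median (log2) of the main probe sets of Ighm, Ighg3, Igha and Jchain in each of the 43 lymphomas, ordered by Igha within each set. A star marks 2 or more units above the set median and a dash 2 or more below. Jchain is mostly low where Igha is low, with exceptions such as D52, D83 and D163. It carries a star in 3 of the 10 lymphomas with a star for Igha.

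The relation between the genes was tested over the 43 lymphomas for all 6 pairs, with values minus the set mean, two-sided permutation tests of 100000 orders and Benjamini-Hochberg adjustment over the 6 pairs. Igha and Jchain were related most closely, with Pearson's r = 0.750 (p = 1e-05, the smallest that these permutations can give, adjusted p = 6e-05) and Spearman's rho = 0.730 (p = 1e-05, adjusted p = 6e-05). Dropping the 2 lymphomas with the most extreme Igha left r = 0.703. Set 1 by itself gave 0.822, while the 7 lymphomas of set 2 gave 0.457, which did not pass (exact permutation p = 0.311). Ighg3 and Jchain gave r = 0.480 (p = 0.00092, adjusted p = 0.00276) and rho = 0.553 (p = 0.00012, adjusted p = 0.00036). Dropping the 2 with the most extreme Ighg3 left 0.543, and the sets gave 0.525 (set 1) and 0.314 (set 2, exact permutation p = 0.505). Ighg3 and Igha gave r = 0.402 (p = 0.00656, adjusted p = 0.0131) and rho = 0.480 (p = 0.00137, adjusted p = 0.00274). Here the same steps gave 0.534, then 0.401 (set 1) and 0.510 (set 2, exact permutation p = 0.242). The main Ighg3 probe set lay above the array's own median in only 17 of the 43 lymphomas. With all probe sets of a gene averaged, Ighg3 gave 0.349 with Jchain and 0.339 with Igha. The dimmer Ighg3 probe set 1447998_at gave r = 0.150 with Jchain and 0.091 with Igha.

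Ighm was not related to the other genes past the threshold in the same test. Its r with Jchain was -0.295 (p = 0.0548, adjusted p = 0.0822) and its rho -0.265 (p = 0.0871, adjusted p = 0.131). With Igha its r was -0.114 (p = 0.471, adjusted p = 0.565) and its rho -0.203 (p = 0.192, adjusted p = 0.230), and with Ighg3 r was 0.0071 (p = 0.963) and rho 0.0285 (p = 0.857). D35 and D83, the lymphomas lowest in Ighm, carried much weight: without them, r was -0.448 with Jchain (adjusted p = 0.00547) and -0.410 with Igha (adjusted p = 0.00948). Without D35 alone, the r of Ighm and Jchain was -0.464 (adjusted p = 0.0052). Within set 1 the r of Ighm was -0.230 with Jchain and -0.117 with Igha, and within set 2 -0.753 (exact permutation p = 0.0488, unadjusted) and -0.0973. When all probe sets of a gene were averaged, the r of Ighm turned to 0.415 with Jchain and 0.495 with Igha. That mean includes the block that follows Igha. Leaving out the 4 lymphomas that stood apart kept every r on its side of the threshold, with 0.759 for Igha and Jchain.

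A further computation of the correlations held the scores of T cells and of macrophages constant. Igha and Jchain then gave 0.677 (p = 1e-05). Ighg3 and Jchain gave 0.306 (adjusted p = 0.0915) and Ighg3 and Igha 0.257 (adjusted p = 0.115), neither past the threshold. Ighm and Jchain gave -0.401 (adjusted p = 0.0236).

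**Figure D4:**
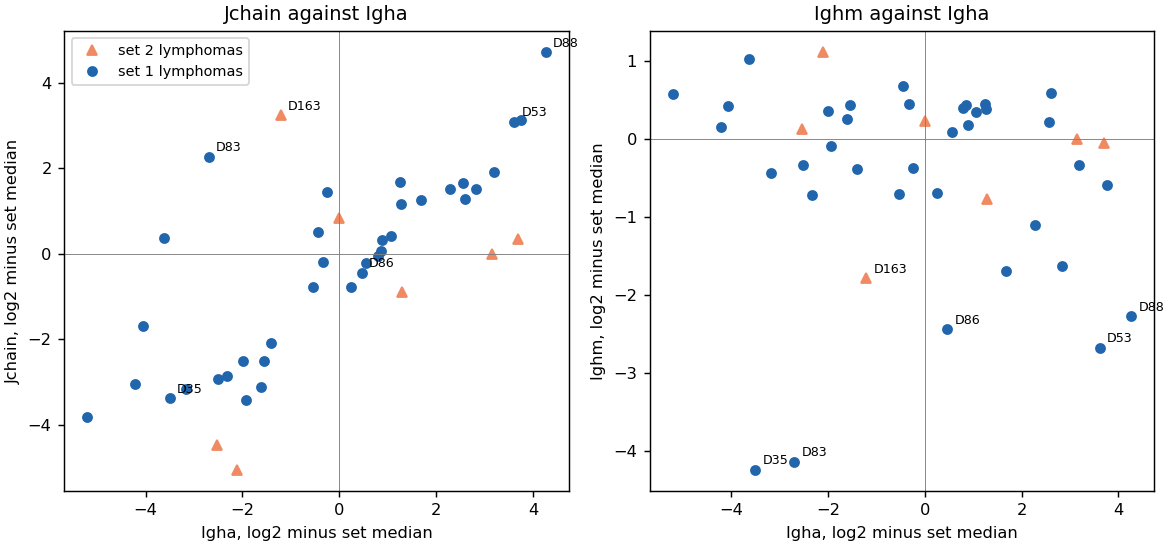
Jchain against Igha and Ighm against Igha in the 43 lymphomas (main probe sets, log2 minus set median), with triangles for set 2 and circles for set 1. Jchain is mostly higher where Igha is higher, with D83 and D163 far above that trend and others such as D52, D133 and D143 off it, and the lymphomas low in Ighm lie at both low Igha (D35, D83) and high Igha (D53, D88).

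Each gene was then used as a predictor, and all 22626 probe sets were regressed on it with limma over the 43 lymphomas, with the set in the fit. A slope is the log2 difference per log2 unit of the predictor, and a probe set was called at an adjusted p under 0.05. The predictor's own probe set was among the 22626, and its call was fixed in advance. Totals and shares over all probe sets include it. Of the 22 other member probe sets, Jchain had 9 with a positive slope and 0 with a negative slope, where 8.71% of all probe sets were called positive and 14.1% negative. These were the 3 Igha probe sets (0.70 to 0.81), main Ighg3 (0.23) and 5 Ighm probe sets (0.28 to 0.43), none of them from the bright pair. Igha had 7 positive and 0 negative, against 0.632% and 0.663% of all probe sets. Its calls were Jchain (0.70 ± 0.09, SE; limma adjusted p = 2.16e-05), its own 2 further probe sets and 4 of the Ighm block. Ighm had 1 positive call, its partner 1427329_a_at (1.13), against 0.0398% of all probe sets, and Ighg3 had 1, its partner 1447998_at (0.67), against 0.274%. No negative member call was made for either, where 0.0221% and 0.0928% of all probe sets were called negative.

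Many genes of antibody secretion followed Jchain, but not all. Of 15 plasma cell genes 10 had a positive slope and 0 a negative one. By rank, and without the 2 lymphomas farthest in Jchain, 2 were called negative, and 1 was with a filter on low values. In the main fit the slopes of Irf4 (-0.15, limma adjusted p = 0.0689) and Slamf7 (-0.16, adjusted p = 0.0535) were negative without passing. Among the positive genes were Tent5c (0.49 ± 0.07, SE), the elongation factor gene Ell2, which favours the secreted form of the heavy chain (0.65 ± 0.12), Edem1, which acts in the disposal of misfolded glycoproteins (0.26 ± 0.04), and Xbp1 (0.23 ± 0.04), with limma adjusted p between 1.84e-05 and 0.000305. Of 16 unfolded protein response genes 11 were positive and 0 negative, with small slopes such as 0.12 for Hyou1 and 0.13 for Hsp90b1 and Hspa5, chaperones of the endoplasmic reticulum, and 0.10 for Calr. The median slope was 0.22 in the plasma cell list and 0.12 in the unfolded protein response list, against 0.00 over all probe sets (-0.0024). D88 and D163, the lymphomas highest in Jchain within their sets, also had the highest plasma cell list means, 2.95 and 2.09 above their set medians, and unfolded protein response means 1.499 and 1.55 above.

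T cell genes had positive slopes as well, in 12 of 13 measured, led by the T cell receptor subunit genes Cd3d (0.46 ± 0.07, SE) and Cd3e (0.22 ± 0.03) and by Cd28 (0.37 ± 0.06). The mean of the T cell list ran between 6.32 and 8.71 in set 2 and between 5.28 and 8.57 in set 1, and it lay 1.43 above the set median in D88 and 1.79 in D163. Neutrophil genes were positive for 5 of 12 and macrophage genes for 2 of 15. Erythroid genes were positive for 1 of 10 and stroma and endothelium genes for 0 of 14. Set 1 alone gave 0 for neutrophil, macrophage and erythroid genes, while T cell genes stayed at 12 of 13. Without the 2 lymphomas farthest in Jchain, 1 neutrophil and 0 macrophage genes were positive. Without the 4 lymphomas that stood apart, 4 neutrophil and 1 macrophage genes were positive and 2 stroma and endothelium genes negative. With the scores of T cells, macrophages, neutrophils and stroma in the fit, 0 of 15 plasma cell genes and 1 of 16 unfolded protein response genes (Hyou1, 0.10 ± 0.02, SE; limma adjusted p = 0.0457) were still called, and 64 probe sets in all, against 5166 without the scores. Ell2 then had a slope of 0.45 ± 0.13 (SE; adjusted p = 0.0868) and Tent5c 0.22 ± 0.06 (adjusted p = 0.0769).

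**Figure D5:**
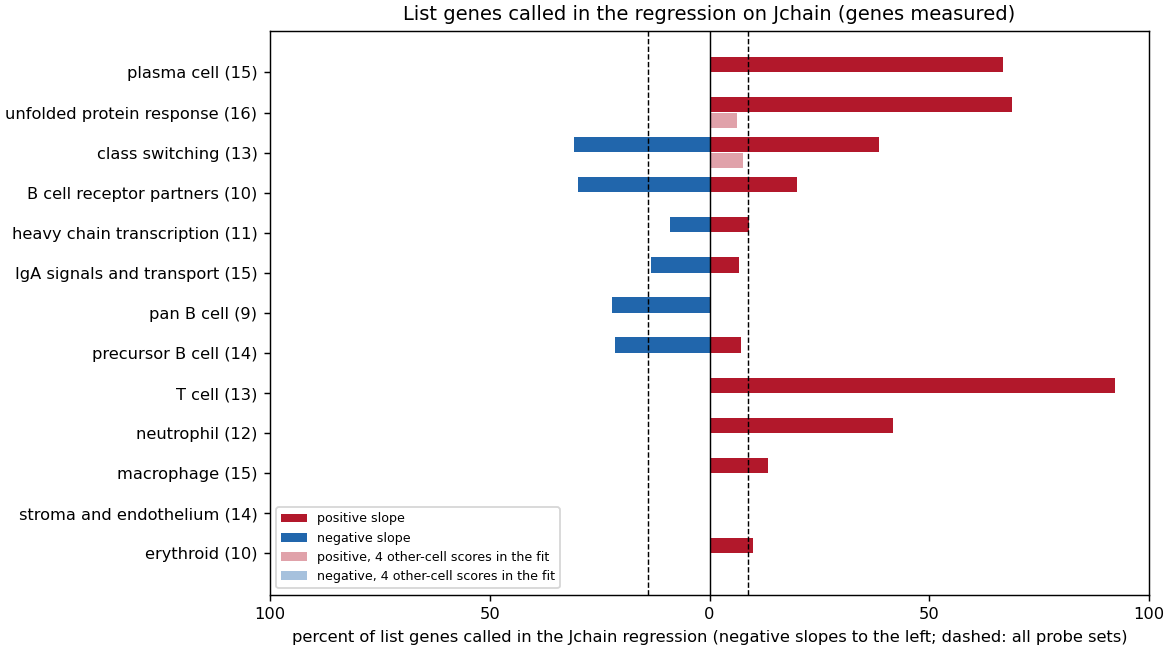
Percent of each list's measured genes called in the regression on Jchain, with positive slopes to the right, negative slopes to the left and dashed lines at the share of all probe sets. The plasma cell, unfolded protein response and T cell lists stand far right of the dashed line, and the pale bars show 0 plasma cell genes and 1 unfolded protein response gene called with the 4 other-cell scores in the fit. The T cell score is 1 of these 4, so the missing pale bar of the T cell list is built in, as it is for neutrophil, macrophage and stroma genes.

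Genes of class switching split in the same regression, with 5 of 13 positive and 4 negative. The positive genes were the germinal centre genes Bcl6 (0.46) and Gcsam (0.52), Mybl1 (0.13), the receptor gene Cd40 (0.19) and the transcription factor gene Batf (0.14), and the negative genes were the DNA repair genes Ung (-0.09), Paxip1 (-0.10), Pms2 (-0.06) and Exo1 (-0.07). With the other-cell scores in the fit 1 of 13 was still called positive. The next 4 lists gave shares near those of all probe sets (8.71% positive, 14.1% negative) or rest on 1 to 3 genes, and with the other-cell scores in the fit none of their genes was called. Among 10 B cell receptor partners, Plcg2 and Pik3cd were positive and the receptor subunit genes Cd79a (-0.24) and Cd79b (-0.13) and the kinase gene Btk (-0.08) negative. Of 14 precursor B cell genes, Sox4 (-0.50), Vpreb3 (-0.32) and Myb (-0.26) fell with rising Jchain and Flt3 rose (0.20). Of 15 genes of IgA signals and transport, Il10 was positive and Smad2 and Smad4 were negative, and in set 1 alone 0 were positive and 1 negative. Of 11 transcription factor genes of the heavy chain locus, Irf8 was positive (0.19) and Tcf3, which encodes E proteins, negative (-0.16). Of the 33 other immunoglobulin probe sets 7 were positive, all of kappa genes, and Ighv14-2 was negative (-0.28).

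For Igha the lists gave fewer calls. T cell genes were positive for 5 of 13 (Bcl11b, Thy1, Cd8a, Cd3d and Lat, with slopes of 0.10 to 0.30), class switching genes for 1 of 13 (Bcl6, 0.34 ± 0.08, SE; limma adjusted p = 0.0289) and plasma cell and unfolded protein response genes for 0 of 15 and 0 of 16. These calls were not stable. T cell genes gave 0 calls without the set in the fit and without the 2 lymphomas farthest in Igha, 9 in set 1 alone and 4 without the 4 lymphomas that stood apart. Of all probe sets, 0.0309%, 0.0751%, 2.37% and 0.411% were called positive in these settings, in that order, against 0.632% in the main fit. Class switching genes gave 0 in the first 2 of these settings, and 3 with the 4 other-cell scores in the fit, where 0.632% of all probe sets were positive. For Ighg3 the only list gene called was Plcg2, a signalling enzyme of the B cell receptor (0.18 ± 0.04, SE; adjusted p = 0.0276). Without the set in the fit, and without the 2 lymphomas farthest in Ighg3, no receptor gene was called. Without the 4 lymphomas that stood apart, 3 class switching, 2 T cell, 1 plasma cell and 1 receptor gene were positive and 1 precursor B cell and 1 heavy chain transcription gene negative, where 2.97% of all probe sets were positive and 2.69% negative. For Ighm no gene of the 13 lists was called, and of the other immunoglobulin probe sets Ighv14-2 was positive (0.72 ± 0.14, SE; adjusted p = 0.0295). Without D35 and D83, 5 unfolded protein response, 4 class switching, 3 plasma cell, 1 receptor and 1 precursor gene were negative and 1 precursor gene positive, where 1.79% of all probe sets were positive and 1.87% negative. The number of probe sets called depended on single lymphomas: 14 for Ighm (3 without D88, 276 without D35), 83 for Ighg3 (9 without D78, 988 without D59), 293 for Igha (14 without D88, 1275 without D163) and 5166 for Jchain (3770 without D88, 5830 without D89).

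The genes most like each member were taken by Pearson's r over the 43 lymphomas, 5 at the high end and 3 at the low end, with immunoglobulin probe sets left out, as a description. Jchain was most like Ctsw (0.77), Xcl1 (0.76), Prkcq (0.76), Hcst (0.75) and Syngr2 (0.75), the first 4 of which are expressed in T cells or natural killer cells, and least like Trnt1 (-0.80), Map2k5 (-0.80) and Gnai3 (-0.78). Igha was most like Jchain itself (0.75), then Hao1 (0.66), Ttr (0.65), Ikzf4 (0.62) and Armcx2 (0.61), where Hao1 and Ttr varied by SDs of only 0.127 and 0.112. Its lowest were the cell cycle inhibitor gene Cdkn1b (-0.68), Tprkb (-0.67) and Trnt1 (-0.66), which encodes a tRNA nucleotidyltransferase.

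Ighm was most like the circadian repressor gene Cry1 (0.68), Cmpk2 (0.63), Cdk5r2 (0.60), Dnph1 (0.59) and Rdx (0.59), and least like Hspb3 (-0.64), Meis3 (-0.62) and Pacsin1 (-0.59). Ighg3 was most like Tktl1 (0.66), 2210409E12Rik (0.64), Clec4e (0.64), Sidt1 (0.63) and Sox5 (0.63), and least like Gsto1 (-0.63), Acbd6 (-0.60) and Chst15 (-0.59). Trnt1 was the only gene among the lowest of more than 1 member.

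RefSeq promoters were matched for 1 of the 4 genes, Jchain, whose levels spanned more than 8 log2 units between lymphomas. Its window of 250 bases before to 50 after the gene start, GRCm38.p6 chr5:88527848-88528147 on the minus strand, is printed 5′ to 3′ with the only searched motif that it holds in capitals, CACCTG, an E-box bound by E proteins such as that of Tcf3.
Jchain: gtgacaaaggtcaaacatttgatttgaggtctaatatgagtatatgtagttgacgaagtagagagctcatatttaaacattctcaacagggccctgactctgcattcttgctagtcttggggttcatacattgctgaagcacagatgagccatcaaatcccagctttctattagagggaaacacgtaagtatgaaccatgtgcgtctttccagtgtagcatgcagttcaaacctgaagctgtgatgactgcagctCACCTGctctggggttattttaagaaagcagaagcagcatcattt
This motif began at position 5 after the gene start and stands on either strand in 20.2% of 32851 mouse promoters of this length. Its reverse complement CAGGTG was counted too. The letters CACGTG (an E-box of Myc and Max, in 7.15% of promoters), ATTTGCAT (the octamer, 1.74%), GAGGAA (a PU.1 core, 28.3%) and TATAAA (the core box of many promoters, 13.6%) were not in this window on either strand, and no overlap of motifs arose.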

How the data were processed

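Per the submitters' processing notes, the deposited values are log2 expression values that the authors made with RMA in the affy package, whose versions are not given in the sources used here. The table holds 22690 probe sets, of which 64 controls were left out, and 0 missing values. Symbols came from the platform annotation, which can be old. No filter was applied. The number of arrays, not a depth, limits precision.

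The members and gene lists were chosen with earlier results of these data known. The main probe set of a gene was the one with a single symbol and the highest mean. Spleen differences and slopes were fitted with limma 3.58.1 in R 4.3.3 (eBayes with trend, set as covariate, 41 residual degrees of freedom in the spleen fit, two-sided tests, Benjamini-Hochberg adjustment over 22626 probe sets, threshold 0.05). The spleen is 1 array, so its error is the spread of the lymphomas. Correlations used scipy 1.17.1 and the mixture check mclust 6.1.1. Named genes were all members, up to 4 called genes of a list by statistic and the likeness ranks; counts of 5 or fewer were also named in full after their values were seen. Ighmbp2 and Igll1 were kept out of the other immunoglobulin probe sets. On simulated data with 22626 probe sets, 48% of spleen differences of 4 residual SDs and 0% of 2 were recovered, and 100% of Jchain slopes of 1 residual SD and 16.5% of 0.5. Alternatives are listed in the closing section.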

Additional observations from a re-analysis of the deposited data

Results flagged for a closer look

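Among the 7 set 2 lymphomas, D143 stood far above the others in 2 of the 23 member probe sets, both of the Ighm block that followed Igha. Probe set 1425324_x_at was at 7.08 in D143, with the next lymphoma at 5.97, and 1427870_x_at was at 8.91, with the next at 7.93. D143 also had the highest Igha level of its set. Chance flags about 1 in 20 groups, and probe sets of this block are not independent of each other.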

How the results depend on the processing

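The count of 10 member probe sets higher in the spleen ran between 9 and 10 when each lymphoma was left out, an alternative chosen after seeing the data, as were all such left-out values here. All probe sets called higher were 2122 without the set and 2028 with array weights, and those called lower were 109 without the set, 626 with set 2 alone, 1844 with equal medians and 2532 with array weights. The median difference of all probe sets was 0.38 without the set, and a filter on low values left 16 of 23 members. The sign turned, with no call, for 1426196_at (-0.0906) and 1451949_at (-0.0390) with equal medians, for 1426198_at (0.29), 1426199_x_at (0.36) and 1452538_at (0.30) without the set, and for 1426199_x_at (0.0173) with quantile normalization.

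At a class limit of 1 log2 unit 2 lymphomas were high for Ighm, 9 for Ighg3, 14 for Jchain and 11 for Igha with Jchain, and at 3 units 1 for Ighg3 and 6 for Igha. From the lower quartile 6 were high for Ighg3, 21 for Igha, 26 for Jchain and 19 for both, and with the mean of all probe sets 0 for Ighg3.

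Probe sets called for Ighm were 4 by rank, 4 in set 1, 828 without the 2 farthest lymphomas, 28 without the 4 lymphomas that stood apart, 22 with the filter, 6 with other-cell scores and 9 with no trend. For Ighg3 they were 55 without the set, 6 by rank, 202 in set 1, 8 without the 2 farthest and 1280 without the 4. For Igha they were 8 without the set, 1085 in set 1, 41 without the 2 farthest and 181 without the 4. For Jchain they were 2065 without the set and 64 with the scores, which left 0 plasma cell and 1 unfolded protein response genes. Each total of probe sets called includes the predictor's own. Leaving out 1 lymphoma gave 3 to 276 for Ighm, 9 to 988 for Ighg3, 14 to 1275 for Igha and 3770 to 5830 for Jchain, with 8 to 11 plasma cell, 8 to 11 unfolded protein response and 11 to 12 T cell genes. The count moved by over 1.5 times without any of 32 lymphomas for Ighm, 19 for Igha and 8 for Ighg3 (D35, D59, D63, D78, D84, D85, D161 and D163).

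Correlations ran, with 1 lymphoma left out, over -0.0704 to 0.123 for Ighm and Ighg3, -0.250 to -0.0504 for Ighm and Igha, -0.464 to -0.238 for Ighm and Jchain, 0.368 to 0.489 for Ighg3 and Igha, 0.453 to 0.524 for Ighg3 and Jchain, and 0.725 to 0.821 for Igha and Jchain. Ighm and Ighg3 gave -0.172 without the 2 farthest, -0.473 in set 2 and 0.346 with the mean of all probe sets. For Ighm and Igha the values were -0.410 and, with that mean, 0.495, and for Ighm and Jchain -0.448, 0.415 and, with T cell and macrophage scores fixed, -0.401. In set 2 Ighg3 and Igha (0.510), Ighg3 and Jchain (0.314) and Igha and Jchain (0.457) missed the threshold, as did the first 2 pairs with the scores fixed (0.257 and 0.306). Where no value above shows it, the cause was not tested. No paired analysis was possible because the replicate numbers were given in accession order and the spleen is 1 sample.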
